A study of Mus musculus with 12 samples.

Results

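Transcripts of 8 genes for DARPP-32 and its signalling partners were described in the cortex of mice that had been drinking ethanol and of water-drinking controls. The genes were Ppp1r1b, Ppp1r1a, Arpp19, Arpp21, Ptpn5, Rasd2, Rasgrp2 and Lrrc10b, a set of signalling proteins enriched in the striatum and grouped around Ppp1r1b, and each was found once, by its symbol, among the 33024 gene rows of the count table. The study asked how voluntary, binge-like drinking in adolescence altered the cortical transcriptome. Wild-type C57BL/6 mice entered a free-choice schedule at postnatal day 30, with 12 h of access in each of 35 night-time sessions. The EtOH group (5 mice) chose between water and 20% (v/v) ethanol, whereas the Control group (7 mice) had vehicle, which was water in both bottles. Both groups then had 14 days without ethanol and behavioural testing before cortex was taken for RNA sequencing, and each library was made from 1 labelled sample, with no stated litter, cage, sex or sequencing batch, although each sample description ends in an M that is not explained. How much ethanol each mouse drank was not analysed here, so the groups stand for access to ethanol and not for a fixed dose.

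In spiny projection neurons of the striatum, dopamine and adenosine receptors raise or lower cyclic AMP, and cyclic AMP releases the catalytic subunits of protein kinase A. DARPP-32, the product of Ppp1r1b, is a substrate of that kinase. Once phosphorylated on a threonine near its amino terminus it becomes an inhibitor of protein phosphatase 1, which prolongs the phosphorylation of other kinase targets, whereas phosphorylation by Cdk5 elsewhere in the protein turns it into an inhibitor of protein kinase A. The same neurons hold further proteins that respond to cyclic AMP, calcium or dopamine, among them the ARPP proteins, the tyrosine phosphatase STEP, the small GTPase Rhes and the exchange factor CalDAG-GEFI. Neurons of the cerebral cortex carry most of these transcripts at lower levels.

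The coding sequence that makes Ppp1r1b and Ppp1r1a a pair is shown because these related inhibitors gave different results in the EtOH mice. Both stretches were read from GENCODE vM39 transcripts (GRCm39), run from the start of the phosphatase docking motif to just past the protein kinase A site, and have the codon of the phosphorylated threonine in capitals, residue 34 of 194 in Ppp1r1b and residue 35 of 171 in Ppp1r1a.
Ppp1r1b: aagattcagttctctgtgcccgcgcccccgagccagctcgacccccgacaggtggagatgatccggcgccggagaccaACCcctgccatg
Ppp1r1a: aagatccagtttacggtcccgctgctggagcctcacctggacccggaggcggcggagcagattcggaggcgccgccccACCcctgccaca
Of the 90 aligned bases, 55 were identical and 35 differed, and the threonine codon itself was the same in both.

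Promoter sequences are shown for Rasd2 and Lrrc10b, the genes with a single entry each among the RefSeq promoters (GRCm38.p6, 250 bases before to 50 after the start), since the log2 changes of these 2 transcripts were nearly equal. The Rasd2 window was chr8:75213694-75213993 on the + strand and the Lrrc10b window chr19:10457398-10457697 on the - strand, and capitals mark the GC box, GGGCGG, read on either strand.
Rasd2: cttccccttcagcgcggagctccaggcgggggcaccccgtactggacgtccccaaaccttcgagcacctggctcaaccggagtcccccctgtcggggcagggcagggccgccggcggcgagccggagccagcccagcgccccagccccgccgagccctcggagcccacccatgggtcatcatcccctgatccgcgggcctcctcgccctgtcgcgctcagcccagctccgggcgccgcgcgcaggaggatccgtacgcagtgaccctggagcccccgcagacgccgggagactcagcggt
Lrrc10b: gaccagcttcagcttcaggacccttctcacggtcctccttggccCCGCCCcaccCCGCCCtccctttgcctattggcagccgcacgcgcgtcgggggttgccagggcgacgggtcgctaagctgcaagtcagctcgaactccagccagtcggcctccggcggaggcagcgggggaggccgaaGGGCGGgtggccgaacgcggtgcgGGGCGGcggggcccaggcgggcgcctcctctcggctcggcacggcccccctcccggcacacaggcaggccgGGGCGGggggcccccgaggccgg
The Lrrc10b window held 5 GC boxes and the Rasd2 window none, at a GC content of 76.3% and 74.7%, and 35.7% of all 32851 promoters of the same length held at least 1. Neither window held the cyclic AMP response element TGACGTCA (1.79% of all promoters), its shorter form TGACG, which also lies within the full element (20.8%), or TATAAA (13.6%), on either strand. Over all 17 windows of the 6 members that matched, some of which overlap, 0 held the full element, 3 held TGACG, all of them for Arpp21, 5 held a GC box and 0 held TATAAA. These matches describe letters only. Ppp1r1b and Ppp1r1a had no entry.

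The libraries held between 31768079 and 42183031 counts, so that 3 counts corresponded to 0.0711 to 0.0944 CPM (reads of a gene scaled to a common library total), and every member lay well above that level in every mouse. A gene was called when edgeR's quasi-likelihood test gave an adjusted p (Benjamini-Hochberg, over 16059 tested genes) under 0.05 and the change exceeded 0.5 on the log2 scale in either direction. By this rule 4.09% of all tested genes were called lower in EtOH mice and 4.2% higher, and the median log2 fold change over all of them was 7.21e-05. The mice were the replicates, and since nothing but a number marks them as separate animals, the p-values measure the spread between these samples. Markers of the labelled tissue were present: 10 cortical excitatory neuron markers summed to 2391 to 2914 CPM in Control and 2355 to 2925 CPM in EtOH mice, with 0 called lower and 1 called higher. Slc17a7 made up most of this sum, with means of 1954 CPM in Control and 1905 CPM in EtOH mice. The log2 fold changes ran from -0.40 (Tbr1, not called) to 0.60 (Fezf2, called), and 4 of the 10 lay below 0.

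All 8 members were tested, and 7 of them (87.5%) fell in the EtOH mice, against the 4.09% of all genes called lower. None was called higher by edgeR, DESeq2 or limma, and 0 had a log2 fold change above 0. In these same 7 every EtOH mouse lay below every Control mouse, an arrangement seen in 4.96% of all tested genes. The median log2 fold change of the 8 was -1.14, and the 8 together summed to 1787 to 2654 CPM in Control and 1034 to 1128 CPM in EtOH mice. Ppp1r1a alone among them was not called. In tissue RNA such as this, fewer cells of a type and less RNA per cell cannot be told apart.

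**Figure D1:**
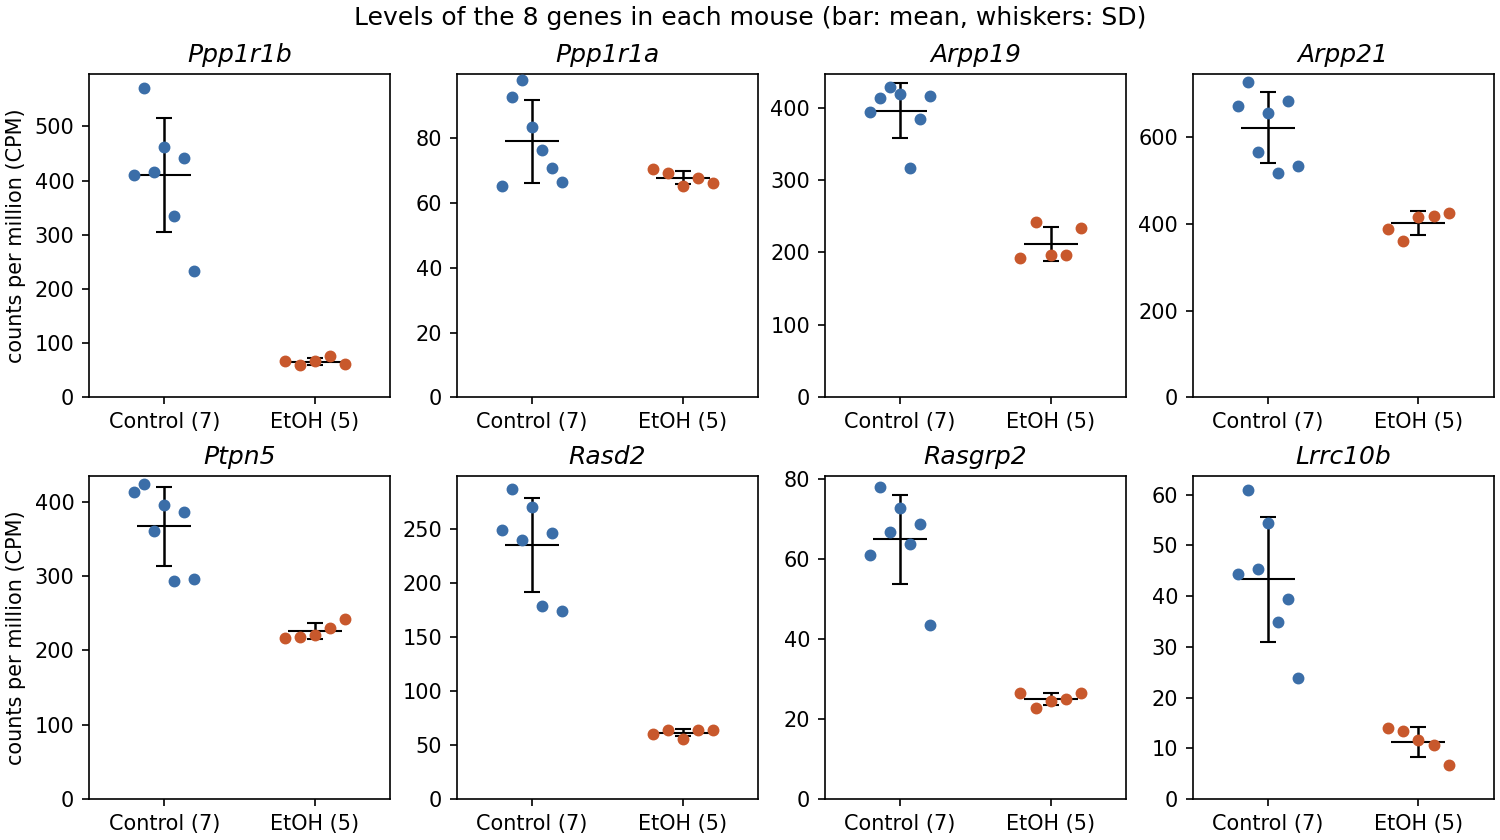
Level of each of the 8 genes in CPM (vertical axis, from 0) in the 7 Control mice (blue) and the 5 EtOH mice (orange), each point a mouse, with the mean and SD of the group in black. The EtOH points lie below every Control point for 7 genes, and only for Ppp1r1a do the groups overlap, with EtOH values of 65.4 to 70.6 CPM inside the Control range of 65.2 to 98.1 CPM.

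Among the phosphatase inhibitors, Ppp1r1b (GRCm39 chr11:98239169-98248624, + strand) encodes DARPP-32 and showed the largest fall of the 8. Control mice had 234 to 571 CPM with a median of 416 CPM. EtOH mice 1 to 5 had 66.5, 59.9, 66.4, 76.2 and 62.4 CPM. The groups were far apart, in that the highest EtOH mouse reached 32.6% of the lowest Control mouse, which was Control 7. The means were 410 ± 105 CPM (SD, n = 7) and 66.3 ± 6.22 CPM (SD, n = 5), for a log2 difference of -2.63 (SE 0.16, 95% confidence interval -2.97 to -2.29, edgeR adjusted p = 7.63e-09). The transcript was therefore 6.19-fold lower, and it ranked 10 by p among the 657 genes called lower. The spread between mice also differed in size, with a coefficient of variation of 25.6% in Control and 9.39% in EtOH mice. Its exons share bases with 2 antisense long non-coding genes, 14.1% with 1700003D09Rik and 14.6% with Gm71798.

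Ppp1r1a (chr15:103436942-103446455, - strand) encodes inhibitor-1, the relative of DARPP-32 that is inhibitory towards the same phosphatase and is more broadly expressed in the brain. Control mice had 65.2 to 98.1 CPM with a median of 76.4 CPM, and EtOH mice 1 to 5 had 70.6, 69.3, 65.4, 67.8 and 66.3 CPM. The EtOH values sat at the lower end of the Control range and overlapped it. The means were 79.0 ± 12.8 CPM (SD, n = 7) and 67.9 ± 2.13 CPM (SD, n = 5), and the log2 fold change of -0.22 (SE 0.09, 95% confidence interval -0.41 to -0.03) did not pass the test (edgeR adjusted p = 0.0897). Without Control 1 (edgeR adjusted p = 0.0444) or Control 7 (0.0456), or without both Control 5 and Control 7 (0.0355), it passed on p and was short of the fold criterion alone, and over all alternatives its edgeR, DESeq2 or limma adjusted p ranged from 0.0355 to 0.345. This value has a limit of its own, because 60.4% of the exon bases of Ppp1r1a lie opposite exons of Pde1b, a phosphodiesterase transcript that fell by 1.37 on the log2 scale, and whether reads were counted by strand was not given in the sources used here. The intervals of the log2 fold changes of Ppp1r1b and Ppp1r1a lay far apart.

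The cyclic AMP-regulated phosphoproteins both fell, by less than Ppp1r1b. Arpp19 (chr9:74944866-74967595, + strand) encodes a small protein that inhibits a form of protein phosphatase 2A once it is phosphorylated by the kinase Mastl. Control mice had 317 to 428 CPM with a median of 413 CPM, and EtOH mice 1 to 5 had 192, 242, 197, 196 and 233 CPM. Control 5 was the low Control mouse, and the next one stood at 384 CPM. From 396 ± 38.0 CPM (SD, n = 7) to 212 ± 23.5 CPM (SD, n = 5), the transcript fell by 0.90 on the log2 scale (SE 0.08, edgeR adjusted p = 3.88e-07). EtOH mice 2 and 5 had the higher Arpp19 values of their group.

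Arpp21 (chr9:111894158-112065764, - strand) gives rise to a short protein that binds calmodulin and to a longer one that binds RNA. Its level in Control mice was 518 to 727 CPM with a median of 656 CPM, and in EtOH mice 1 to 5 it was 388, 360, 416, 418 and 427 CPM. No EtOH mouse reached the lowest Control mouse, again Control 5. The change from 623 ± 81.8 CPM (SD, n = 7) to 402 ± 27.5 CPM (SD, n = 5) was -0.63 on the log2 scale (SE 0.08, edgeR adjusted p = 3.12e-05), the smallest of the 7 called changes. The short and long forms were not separated in these gene-level counts.

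Ptpn5 (chr7:46727541-46783690, - strand) encodes STEP, a tyrosine phosphatase that acts on the kinase Fyn and on glutamate receptor subunits, and that is itself held inactive by protein kinase A. Control mice had 294 to 424 CPM with a median of 385 CPM, with Control 5 and Control 7 the lowest at 294 and 296 CPM. EtOH mice 1 to 5 had 216, 218, 221, 230 and 242 CPM, a narrow band under all Control values. The means of 367 ± 53.2 CPM (SD, n = 7) and 226 ± 10.8 CPM (SD, n = 5) stood apart by a log2 difference of -0.70 (SE 0.09, edgeR adjusted p = 1.93e-05).

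Rasd2 and Rasgrp2, genes of small GTPase signalling, both fell more than the ARPP genes and Ptpn5. Rasd2 (chr8:75940572-75950874, + strand) encodes Rhes, a small GTPase known for its enrichment in striatum and its dependence on thyroid hormone. Control mice had 174 to 288 CPM with a median of 247 CPM, whereas EtOH mice 1 to 5 had 60.6, 64.0, 56.0, 63.9 and 63.6 CPM. The highest EtOH mouse was at 36.8% of the lowest Control mouse, so the separation was nearly as wide as for Ppp1r1b. The means were 235 ± 43.3 CPM (SD, n = 7) and 61.6 ± 3.46 CPM (SD, n = 5), for a log2 difference of -1.93 (SE 0.11, edgeR adjusted p = 4.11e-09), which ranked 7 by p among the genes called lower. No other annotated gene shares exon bases with Rasd2.

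Rasgrp2 (chr19:6448876-6465262, + strand) encodes CalDAG-GEFI, which responds to calcium and diacylglycerol and activates the GTPase Rap1. In Control mice it had 43.3 to 77.9 CPM with a median of 66.6 CPM, and Control 7 stood below the other 6, which began at 60.8 CPM. EtOH mice 1 to 5 had 26.5, 22.8, 24.6, 25.0 and 26.4 CPM. It fell from 64.8 ± 11.0 CPM (SD, n = 7) to 25.0 ± 1.52 CPM (SD, n = 5), for a log2 difference of -1.37 (SE 0.11, edgeR adjusted p = 1.20e-07). Antisense Gm14965 shares 9.6% of its exon bases.

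Lrrc10b (chr19:10432735-10434837, - strand) encodes a leucine-rich repeat protein. Control mice had 23.9 to 61.0 CPM with a median of 44.4 CPM, the lowest again being Control 7. EtOH mice 1 to 5 had 14.1, 13.4, 11.6, 10.7 and 6.69 CPM, all under the Control range, with EtOH 5 the lowest. Means of 43.3 ± 12.3 CPM (SD, n = 7) and 11.3 ± 2.91 CPM (SD, n = 5) stood apart by a log2 difference of -1.93 (SE 0.21, edgeR adjusted p = 3.21e-06). Its relative spread stayed wide in both groups, with a coefficient of variation of 28.3% in Control and 25.7% in EtOH mice.

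Set in order of their log2 fold changes, the members ran Ppp1r1b, Lrrc10b, Rasd2, Rasgrp2, Arpp19, Ptpn5, Arpp21 and Ppp1r1a. The 95% confidence intervals of neighbours were apart between Rasd2 and Rasgrp2, between Rasgrp2 and Arpp19 and between Arpp21 and Ppp1r1a. They overlapped between Ppp1r1b and Lrrc10b, Lrrc10b and Rasd2, Arpp19 and Ptpn5, and Ptpn5 and Arpp21. The 4 transcripts that more than halved were thus separated by their intervals from the 3 smaller falls. With Control 5 and Control 7 left out, and likewise with the 3 EtOH mice richest in choroid plexus markers left out, the same number of members, 7, was called lower.

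To compare levels between genes, CPM was divided by the annotated exon length in kb, which counts every exon of the gene and so understates genes with long alternative ends such as Arpp21 (22.096 kb of exon). On this scale the Control mice ran Ppp1r1b 125, Arpp19 77.0, Rasd2 58.8, Ptpn5 53.3, Arpp21 28.2, Lrrc10b 20.6, Ppp1r1a 19.4 and Rasgrp2 5.05 CPM per kb as means. Only 2 of the 7 steps in that order were free of overlap between mice, that from Ptpn5 to Arpp21 and that from Ppp1r1a to Rasgrp2. Compared within each mouse, the order of neighbours held in all 7 Control mice for most steps. The exceptions were Ppp1r1b above Arpp19, in 6 mice, and Lrrc10b above Ppp1r1a, in 4 mice. In EtOH mice the order became Arpp19 41.2, Ptpn5 32.8, Ppp1r1b 20.3, Arpp21 18.2, Ppp1r1a 16.7, Rasd2 15.4, Lrrc10b 5.38 and Rasgrp2 1.95 CPM per kb. There the ranges overlapped only between Ppp1r1b and Arpp21 and between Arpp21 and Ppp1r1a. Ppp1r1b thus moved from the top of the order to the third place, and Rasd2 passed below Ppp1r1a in all 5 EtOH mice.

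**Figure D2:**
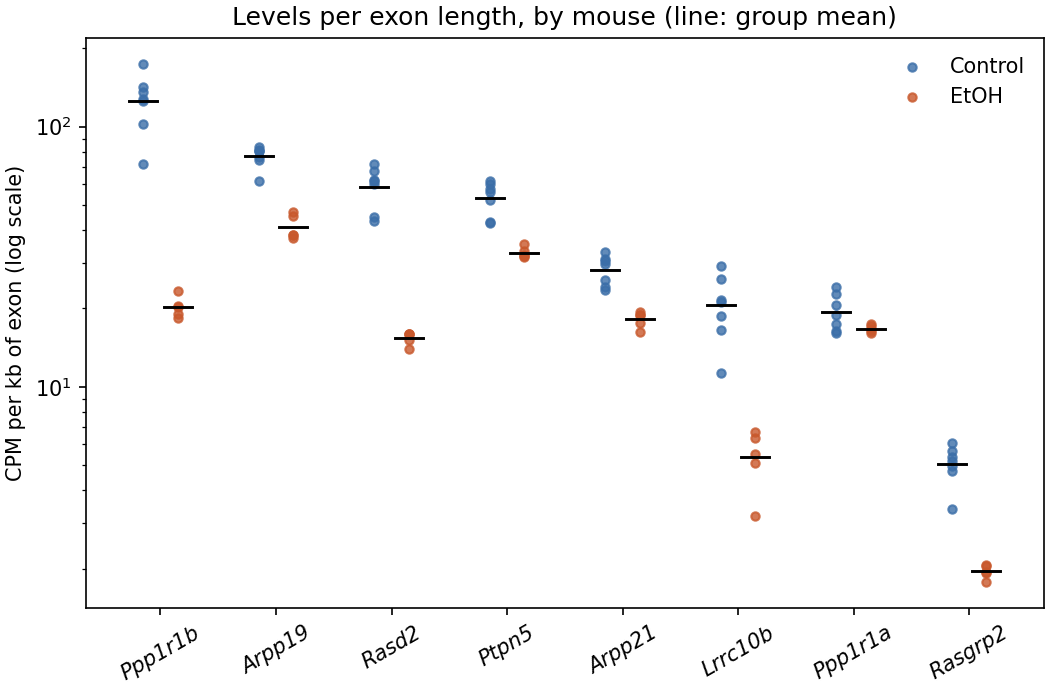
Level of each gene in CPM per kb of exon (vertical axis, logarithmic) in Control (blue) and EtOH (orange) mice, each point a mouse and each black line a group mean, with the genes ordered by their Control mean. Ppp1r1b stands highest in Control mice at a mean of 125 and drops to 20.3 in EtOH mice, below Arpp19 at 41.2 and Ptpn5 at 32.8.

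The genes around the members were taken as 8 lists of pathway partners, 78 genes in all, of which 76 were tested. Of these, 12 were called lower and 2 higher, beside 4.09% and 4.2% of all genes, and their median log2 fold change was -0.12. Of the 12 falls, 6 belonged to the upstream list and 3 to the phosphodiesterases. Among 9 upstream receptors, G proteins and cyclases, 6 fell and 0 rose, all 9 lying below 0 with a median of -1.33. Dopamine receptor Drd1 fell from 67.3 ± 18.4 to 11.6 ± 1.66 CPM (SD, n = 7 and 5), log2 fold change -2.54 (edgeR adjusted p = 4.37e-08). Drd2, the inhibitory dopamine receptor, fell from 64.8 ± 19.8 to 2.06 ± 0.663 CPM (edgeR adjusted p = 1.14e-09). The adenosine receptor Adora2a went down beside it, from 57.0 ± 18.9 to 2.30 ± 1.33 CPM (edgeR adjusted p = 1.92e-08). Further down, the transcripts of the G protein subunits Gnal and Gng7 and of the cyclase Adcy5, which couple these receptors to cyclic AMP in striatum, had log2 fold changes of -1.07, -1.33 and -1.41 and were called lower. The muscarinic receptor Chrm4 (log2 fold change -0.07), the general stimulatory subunit Gnas (-0.25) and Gnb1 (-0.12) were not called.

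Of 8 phosphodiesterases, which degrade cyclic nucleotides, 3 fell and 0 rose by edgeR, DESeq2 or limma, with a list median of -0.31. At an edgeR adjusted p under 0.05 with no fold minimum, 5 lay lower and 1 higher. By that rule 1863 of the 16059 tested genes lay lower and 1947 higher. Pde10a, the striatal dual-substrate enzyme, fell from 342 ± 66.8 to 82.7 ± 12.1 CPM (SD, n = 7 and 5), log2 fold change -2.05 (edgeR adjusted p = 1.24e-08). Calmodulin-dependent Pde1b fell by 1.37 and Pde7b by 1.52. Pde4a (-0.29), Pde4b (-0.34), Pde8b (-0.01), Pde4d (0.32) and Pde2a (0.36) were not called. Without Control 5, Pde2a was called higher at 0.53.

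Protein kinase A itself gave no call. None of its 8 subunit and anchor genes was called in either direction by edgeR, DESeq2 or limma (median log2 fold change -0.09). By edgeR 3 of them lay lower and 0 higher at an adjusted p under 0.05, at smaller changes than the criterion asks for. With no fold minimum, 1863 of the 16059 tested genes lay lower and 1947 higher. The regulatory subunits Prkar2b and Prkar1b had the smallest p. Prkar2b went from 82.8 ± 7.74 to 59.0 ± 1.76 CPM (SD, n = 7 and 5) at -0.49 on the log2 scale (edgeR adjusted p = 3.01e-05), just short of the fold criterion, and it was called lower without Control 3 (-0.51), Control 5 (-0.50), Control 7 (-0.52) or EtOH 1 (-0.50). Prkar1b stood at -0.35 (edgeR adjusted p = 0.000175). The catalytic subunits Prkaca and Prkacb had log2 fold changes of -0.15 and -0.03.

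Of the 14 genes for other kinases and phosphatases that act on DARPP-32, such as Cdk5, casein kinases, calcineurin and protein phosphatase 2A, 0 were called by edgeR, DESeq2 or limma (median -0.12). With no fold minimum 3 lay lower and 0 higher at an edgeR adjusted p under 0.05, beside 1863 and 1947 of 16059 tested genes. The smallest p belonged to the phosphatase subunit Ppp2r5d (log2 fold change -0.21, edgeR adjusted p = 0.00858) and to the Cdk5 activator Cdk5r1 (-0.21, edgeR adjusted p = 0.0102). Of the 11 genes for protein phosphatase 1, the target of DARPP-32, 10 were tested and 1 was called, with a median of -0.27. Without the fold minimum, 7 lay lower and 1 higher at that adjusted p, beside the same 1863 and 1947 of all genes. The called gene was the inhibitor Ppp1r2, which fell from 153 ± 27.6 to 105 ± 5.89 CPM (SD, n = 7 and 5), a log2 difference of -0.55 (edgeR adjusted p = 0.000881). Its change was -0.47 without Control 2, short of the fold criterion. The catalytic subunit Ppp1ca (-0.46) was called lower without Control 5 (-0.51) or EtOH 4 (-0.50), and the inhibitor Ppp1r14c (0.48) was called higher without Control 4 (0.51) or EtOH 5 (0.52). Ppp1r1c, another relative of Ppp1r1b, was not tested at means of 0.211 CPM in Control and 0.0886 CPM in EtOH mice.

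None of the 9 relatives and partners of the ARPP proteins was called by edgeR, DESeq2 or limma (median -0.12). Without the fold minimum, 2 lay lower and 0 higher at an edgeR adjusted p under 0.05, beside 1863 and 1947 of 16059 tested genes. Ppp2r2a, a regulatory subunit of the phosphatase that Arpp19 inhibits, had the smallest p at -0.38 on the log2 scale (edgeR adjusted p = 0.000279), followed by Ppp2r2c at -0.16 (edgeR adjusted p = 0.0262). Ensa, the closest relative of Arpp19, stood at -0.10 and the kinase Mastl at 0.28, neither called, beside the fall of 0.90 in Arpp19.

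Among 9 relatives and substrates of STEP, 1 fell and 1 rose. Only 2 of the 9 had a log2 fold change below 0 (median 0.09), and the summed level of the list was 2540 to 2770 CPM in Control and 2831 to 3099 CPM in EtOH mice. Without the fold minimum the list still had 1 gene lower and 1 higher, beside 1863 and 1947 of 16059 tested genes. The fall was that of Ptpn7, a scarce phosphatase of the same subfamily, at 1.41 ± 0.610 CPM in Control and 0.0383 ± 0.0351 CPM in EtOH mice (SD, n = 7 and 5). Since the EtOH mean lies under the level of 3 counts, no fold is given. The glutamate receptor subunit Grin2b, a substrate of STEP, rose from 361 ± 36.4 to 518 ± 23.7 CPM (SD, n = 7 and 5), or 0.52 on the log2 scale (edgeR adjusted p = 2.24e-05), and its change fell short of 0.5 without Control 2 (0.48), Control 3 (0.50 when rounded) or EtOH 3 (0.49). The kinase Fyn, another substrate, stood at 0.11 and was not called.

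In the list of 10 Ras family relatives and targets, 9 genes were tested, of which 1 fell and 1 rose (median -0.12). Rasd1, the nearest relative of Rasd2 and a gene induced by glucocorticoid, rose from 4.69 ± 0.931 to 12.7 ± 1.89 CPM (SD, n = 7 and 5), or 1.44 on the log2 scale (edgeR adjusted p = 6.34e-07), while Rasd2 fell by 1.93. Rasgrp4, a scarce relative of Rasgrp2, fell from 2.27 ± 0.505 to 1.49 ± 0.246 CPM, log2 fold change -0.61 (edgeR adjusted p = 0.0256), with overlap between the groups. Its call was lost without Control 3, Control 4, EtOH 1 or EtOH 2, where its log2 fold change was between -0.54 and -0.56 and its adjusted p between 0.0526 and 0.0664. Rap1a and Rap1b, the GTPases that Rasgrp2 acts on, were at -0.03 and -0.10, and Lrrc10, the relative of Lrrc10b, was too scarce to be tested.

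**Figure D3:**
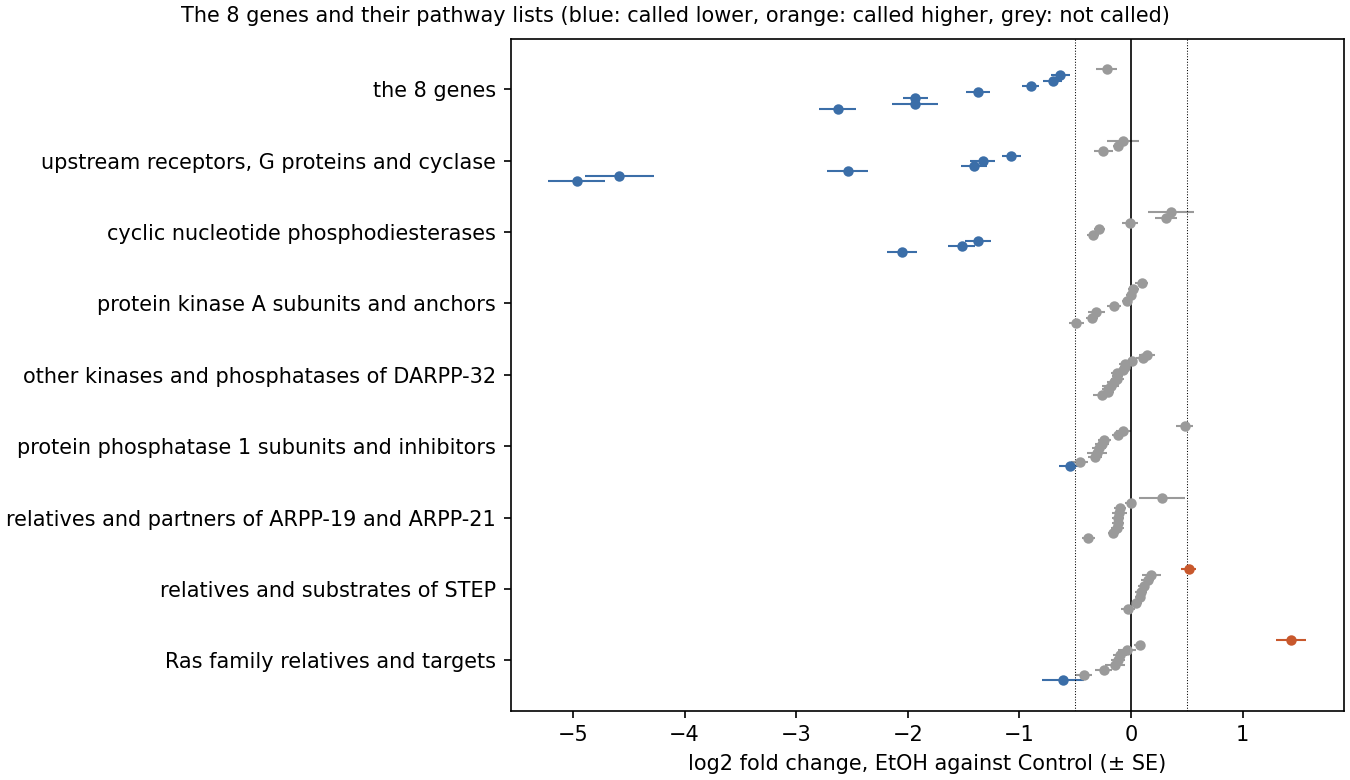
Log2 fold change of EtOH against Control (horizontal axis, with SE) for the 8 genes and, in rows below, for the tested genes of the 8 pathway lists without Ptpn7, each point a gene, blue where called lower, orange where called higher and grey where not called, with dotted lines at -0.5 and 0.5. The blue points gather among the 8 genes, the upstream list and the phosphodiesterases, with Drd2 lowest at -4.97, and Rasd1 at 1.44 is the orange point farthest to the right.

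Markers of striatal spiny neurons moved with the members. All 15 of 15 such markers, several of which are also among the receptors and enzymes above, were called lower (median log2 fold change -2.89), and their summed level was 1583 to 3179 CPM in Control and 519 to 619 CPM in EtOH mice, with no marker at 0 throughout a group. Control 7, the lowest Control mouse for Ppp1r1b, Rasd2, Rasgrp2 and Lrrc10b, also had the lowest striatal sum, 1583 CPM, and Control 5 had the second lowest, 2219 CPM. Hippocampal neuron markers lay the other way, with 8 of 9 called higher and sums of 151 to 250 CPM in Control and 373 to 439 CPM in EtOH mice. Choroid plexus markers, of which 2 of 3 tested were called higher, spread from 10.9 to 970 CPM in EtOH and from 5.90 to 15.8 CPM in Control mice. Of 7 interneuron markers 2 were called lower, of 6 oligodendrocyte markers 2 were called lower, and of 6 markers of all neurons 0 were called, the sums of the last overlapping at 6509 to 7564 CPM in Control and 6464 to 6840 CPM in EtOH mice. Interneuron sums lay apart, at 933 to 1259 CPM in Control and 791 to 844 CPM in EtOH mice, whereas oligodendrocyte sums overlapped at 4175 to 5567 and 2774 to 4975 CPM. The 2 interneuron markers called were Gad2 (log2 fold change -0.63) and Slc32a1 (-0.77). Gad1 (-0.31) was not called but lay lower in every EtOH mouse. Pvalb, Sst, Vip and Lhx6 were not called and overlapped between the groups. Of 5 astrocyte markers 1 was called higher, with sums of 790 to 889 CPM in Control and 960 to 1062 CPM in EtOH mice, which did not overlap. Of 5 microglial markers 0 were called, yet their sums of 248 to 273 CPM in Control and 221 to 245 CPM in EtOH mice did not overlap either. Of the 4 endothelial and 5 red blood cell markers 0 were called, and their sums overlapped. The part of these other cell populations in the falls of the members was not tested, and a change in what was dissected and a change in expression cannot be told apart by these samples.

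**Figure D4:**
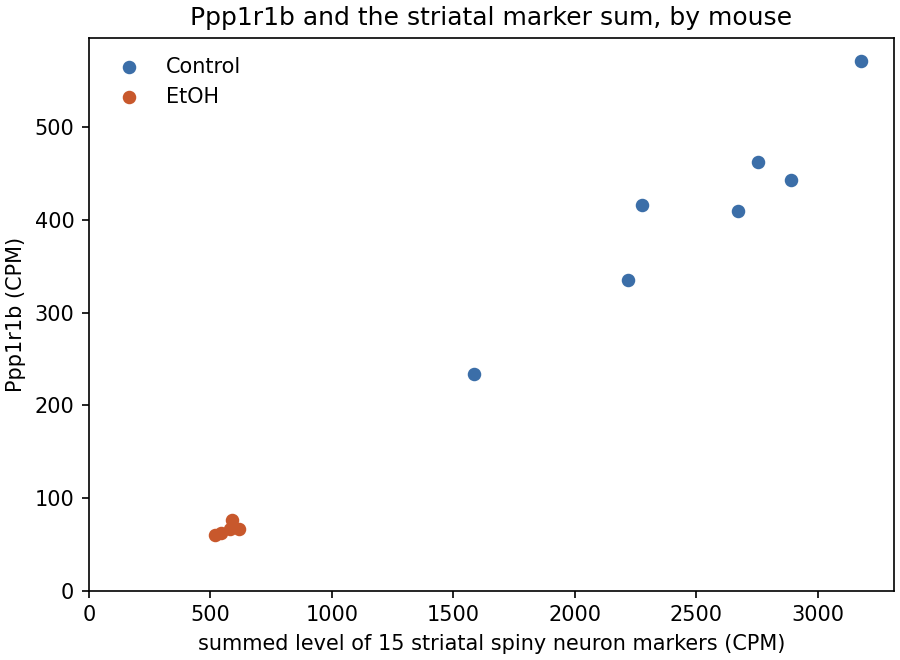
Ppp1r1b in CPM (vertical axis) against the summed CPM of 15 striatal spiny neuron markers (horizontal axis) in each Control mouse (blue) and EtOH mouse (orange). The EtOH mice form a tight group at sums of 519 to 619 CPM, and among the Control mice the lowest point is Control 7, at 234 CPM of Ppp1r1b and a sum of 1583 CPM.

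Levels per 100 CPM of that striatal sum restate the folds above on another scale, since a member that fell less than the sum must lie higher on it, and they are given as a description with no test. Ppp1r1b had 14.8 to 18.3 CPM in Control and 10.7 to 12.9 CPM in EtOH mice, and so lay lower in every EtOH mouse on this scale too. Rasd2 (8.07 to 11.0 against 9.65 to 12.3 CPM) and Lrrc10b (1.37 to 1.99 against 1.23 to 2.58 CPM) overlapped between the groups. Rasgrp2, Ptpn5, Arpp19, Arpp21 and Ppp1r1a lay higher in every EtOH mouse than in every Control mouse, Ptpn5 for example at 34.9 to 44.7 CPM against 13.2 to 18.7 CPM.

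The Control mice were then used alone to ask which members followed Ppp1r1b from mouse to mouse, so that the difference between the groups did not enter that relation. Over the 7 Control mice, Pearson's r of log2 CPM with Ppp1r1b was 0.93 for Rasd2 (exact permutation p = 0.000794, adjusted over 7 relations 0.00556, Spearman's rho 0.89 with exact p = 0.0123, adjusted 0.0287). Rasgrp2 had an r of 0.95 (exact permutation p = 0.00258, adjusted 0.00602, rho 0.96 with exact p = 0.00278, adjusted 0.0194) and Lrrc10b an r of 0.96 (exact permutation p = 0.00159, adjusted 0.00556, rho 0.89 with exact p = 0.0123, adjusted 0.0287). Without Control 7 and Control 2, the mice farthest from the median, these became 0.97, 0.65 and 0.79. The relations of Rasgrp2 and Lrrc10b thus rested in part on those mice.

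Ptpn5 (r 0.87, exact permutation p = 0.00734, adjusted 0.0128, rho 0.75 with exact p = 0.0663, adjusted 0.0928) and Arpp21 (r 0.82, exact permutation p = 0.00992, adjusted 0.0139, rho 0.79 with exact p = 0.0480, adjusted 0.0840) gave r of 0.86 and 0.81 without the same 2 mice, and no test compared the correlations of different genes. For Ppp1r1a, r was 0.57 (exact permutation p = 0.176, adjusted 0.205, rho 0.57 with exact p = 0.200, adjusted 0.233) and fell to 0.11 without them. Arpp19 gave an r of 0.21 (exact permutation p = 0.585, adjusted 0.585, rho 0.21 with exact p = 0.662, adjusted 0.662) that became 0.86 without them, so no single value describes it. All tests were two-sided, and all 7 relations share the same mice and libraries.

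**Figure D5:**
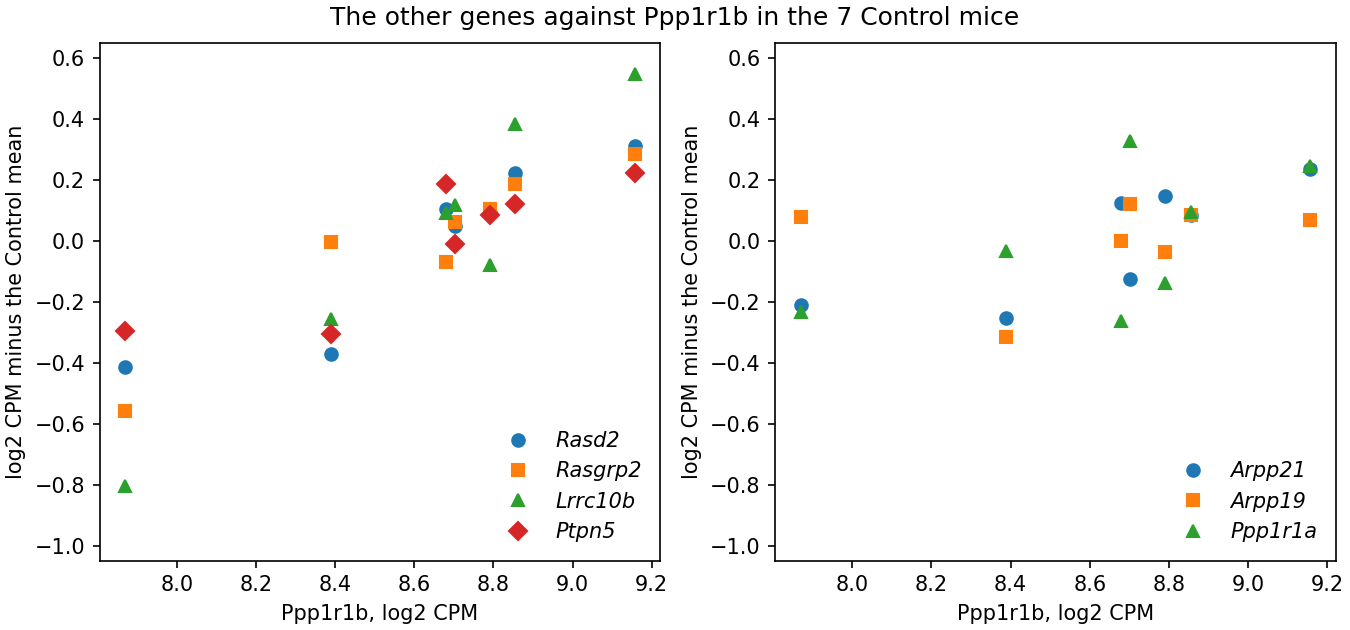
Log2 CPM of the other 7 genes, each minus its Control mean (vertical axis), against log2 CPM of Ppp1r1b (horizontal axis) in the 7 Control mice, each point a mouse. The points of Rasd2 (r 0.93), Rasgrp2 (0.95) and Lrrc10b (0.96) climb from left to right, and those of Arpp19 have an r of 0.21 with all 7 mice and 0.86 without Control 7 and Control 2.

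With the members left out, 14166 genes had a mean of at least 1 CPM over all 12 mice. Among them, the 5 genes with the highest r to Ppp1r1b over the 7 Control mice were Slc32a1 (0.988), Gpr83 (0.986), Htr1d (0.986), Necab2 (0.985) and Penk (0.984). These are a vesicular GABA transporter, a pair of G protein-coupled receptors, a neuronal calcium-binding protein and the enkephalin precursor. They were picked from many genes over few mice, so the values are a description. In the EtOH mice Slc32a1 (log2 fold change -0.77), Gpr83 (-0.82), Htr1d (-3.27) and Penk (-3.72) were called lower, whereas Necab2 was not (0.08, edgeR adjusted p = 0.781). With a minimum of 10 CPM, 4 of the 5 remained, without Htr1d.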

How the data were processed

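RNA was extracted from frozen cortex of 7 Control and 5 EtOH mice and sequenced by a commercial service. Per the study's methods and the submitters' processing notes, reads were checked with FastQC 0.11.9, aligned with STAR to GRCm39 and counted per gene with featureCounts; the strand setting and the treatment of reads shared between genes were not given in the sources used here. The values the authors deposited are estimated counts per gene, not normalized: they are whole numbers apart from 61 gene symbols, and were rounded to whole numbers here. All 12 columns matched a sample and 0 were left over. No normalized values and no comparisons made by the authors were used.

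Counts were tested with edgeR 4.0.16 in R 4.3.3 (quasi-likelihood test, TMM factors of 0.982 to 1.02, genes kept by edgeR's expression filter, Control and EtOH in one fit with no covariate), with p-values adjusted by the Benjamini-Hochberg method over 16059 genes. Calls needed an adjusted p below 0.05 and a change of more than 0.5 on the log2 scale. CPM used TMM-scaled library sizes, and log2 CPM used a prior count of 2. Positions and exon lengths came from GENCODE vM39 (GRCm39), a later release than the one the study names. DESeq2 1.42.0, limma 3.58.1 (voom), other scaling factors, filters and fold minimums, a replicate block and leaving out each mouse were the alternatives, and the test was tried first on simulated data. Depth of 31768079 to 42183031 counts sets a level of 3 counts at 0.0711 to 0.0944 CPM, for counting error only. Replicates were compared in pairs, and none agreed within sampling noise (chi-square divided by its degrees of freedom at least 7.76).

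The members, the pathway lists and the marker lists were chosen with earlier results of these data known. Named were all 8 members, the called genes of each pathway list or, where none was called, the 2 with the smallest p, and the 5 genes most like Ppp1r1b in Control mice; the other pathway genes given by value were chosen after their values were seen.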

Additional observations from a re-analysis of the deposited data

Results flagged for a closer look

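Within the groups, 2 of 16 checks of a member's log2 CPM (8 genes in Control and in EtOH mice) found a mouse that stood apart from the others by Dixon's criterion, where chance gives about 1 in 20, or 0.8 of 16. Arpp19 in Control 5 had a log2 CPM of 8.31, the lowest of the 7 Control mice, the next being 8.59. Rasgrp2 in Control 7 had a log2 CPM of 5.44, again the lowest, the next being 5.93. Without Control 5 the fall of Arpp19, and without Control 7 that of Rasgrp2, stayed called.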

How the results depend on the processing

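Each of the 8 members kept its direction and its call, or lack of one, with each of the 12 mice left out in turn and under the 7 other choices of test, scaling, filter and replicate block, as well as under 2 mouse exclusions chosen after seeing the data. Over the single exclusions the log2 fold change of Ppp1r1b ranged from -2.73 to -2.53 and that of Ppp1r1a from -0.26 to -0.16. Counts of calls depended on the fold minimum: with none, 1863 genes were called lower and 1947 higher, and 31 and 4 pathway genes, and with a log2 fold change above 1, 282 and 242 genes, 4 members (Ppp1r1b, Lrrc10b, Rasd2 and Rasgrp2) and 1 pathway gene called higher. Without EtOH 1, EtOH 3 and EtOH 4, 397 genes and 1 pathway gene were called higher, with fewer mice in the fit. Leaving out 1 mouse, the pathway genes called higher numbered 1 to 3, and the correlation of Arpp19 with Ppp1r1b ranged from -0.12 (without Control 5) to 0.72 (without Control 7). Replicate numbers did not pair the mice (correlations of deviations from -0.11 to 0.02 over 5 numbers), and with a replicate block 7 members were called lower, Prkar2b became called lower (-0.51, edgeR adjusted p = 0.000237), Rasgrp4 was no longer called (-0.56, edgeR adjusted p = 0.0737), and Ppp1r1a, still not called, had an adjusted p of 0.0423. Ptpn7 was not tested with a minimum of 10 counts in every mouse. Depth limits only the scarce genes named here: Ptpn7, Ppp1r1c and Lrrc10 lay near the level of 3 counts in 1 or both groups, and all 8 members lay far above it.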
